A study of Mus musculus with 12 samples.

Results

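ERVL elements, the family of endogenous retroviruses to which MERVL belongs, were followed in testes of mice with and without the protein Maelstrom. They were taken as every genomic repeat copy whose family was given as exactly ERVL in the deposited count table, summed by repeat name over all 12 libraries. This gave 110 subfamilies of 1554 in the table, made of 117819 copies of 5138235. RNA and ribosome footprints, the fragments of RNA that ribosomes shield from nuclease, were sequenced from the same testicular extracts. *Mael*+/- mice, which carry 1 intact copy of *Mael*, were the controls, and *Mael*-/- mice lacked it, with 3 replicates per genotype and assay. All animals were C57BL/6 males at postnatal day 16 with the constitutive mutation, so every cell type of the testis carried it, and no wild-type group was part of the comparison. Dissected testes were kept in cycloheximide, which holds ribosomes on RNA, in both genotypes. The series was described as biological replicates, without a statement of how many animals went into each extract.

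ERVL elements are retrovirus-like transposons in which long terminal repeats (LTRs), which hold the promoter, flank an internal part that once coded for viral proteins. MERVL is the mouse lineage that is still transcribed: its internal part is annotated as MERVL-int and its LTR as MT2_Mm, and both are known for a burst of expression in embryos at the time the zygotic genome is activated. The older MT2, RMER, MLT2 and LTR16 repeats are mostly solitary LTRs and remnants. Maelstrom belongs to the piRNA pathway, which silences transposons in germ cells, and its loss is best known for the release of LINE-1 (L1).

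Gene counts summed to between 13697267 and 27462358 per RNA library and to between 7609932 and 13233565 per footprint library. *Mael* RNA stood at 219, 158 and 144 CPM in the heterozygous libraries and at 0.0724, 0.0992 and 0 CPM in the *Mael*-/- libraries, where CPM are counts relative to the TMM-scaled gene total of the library. In footprints it stood at 137, 85.2 and 84.2 CPM against 0, 0 and 0.828 CPM, so the genotype labels fitted the mutated gene in all 12 libraries. Markers of the labelled tissue were present throughout, with a sum of 5 Sertoli cell genes between 5429 and 6304 CPM and a sum of 4 germ cell genes between 979 and 2249 CPM in RNA. Heterozygous extract 1 was above the rest in the germ cell sum and in markers of pachytene spermatocytes, the germ cells then furthest in meiosis. The germ cell sum was 2249, 979 and 1181 CPM in heterozygous RNA against 1269, 1355 and 996 CPM in *Mael*-/- RNA. In footprints it was 3144, 1537 and 1682 CPM against 1646, 1607 and 1571 CPM. The sum of 12 pachytene genes was 775, 236 and 257 CPM in heterozygous RNA against 214, 211 and 179 CPM in *Mael*-/- RNA. In footprints this pachytene sum was 988, 271 and 336 against 276, 246 and 233 CPM. The genotypes thus also separated in RNA without extract 1, while footprints overlapped. All 9 of these genes that could be tested in RNA were lower in *Mael*-/-. None had an adjusted p under 0.05 in the edgeR test used below, against 0.116% of all genes. At an unadjusted edgeR p under 0.05 there were 6 of the 9, whose median log2 fold change was -1.54. In footprints 7 could be tested, all were lower in *Mael*-/-, and 5 had an unadjusted edgeR p under 0.05. The share of all genes at an unadjusted p under 0.05 was not computed. In such bulk libraries, fewer cells of a type and less RNA per cell cannot be told apart.

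ERVL elements were a small part of what was sequenced. They held 211021 counts in all, 142060 in RNA and 68961 in footprints. That was 1.03 to 1.15% of the repeat counts of an RNA library and 0.767 to 0.883% of those of a footprint library. Of their copies, 18460 (15.7%) had at least 1 count, and of the 110 subfamilies only HERVL32-int had none. LTRs and other parts outside the internal regions took 73.7 to 78% of the ERVL counts of each library, and names ending in -int the rest.

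Most of these counts lay in few subfamilies and few copies. RMER15, MERVL_2A-int, MERVL-int, MT2A and RMER10A together held 61.1% of ERVL counts. A single RMER15 copy, RMER15_10650, held 43576 counts, which was 20.7% of all ERVL counts and 60.3% of those of RMER15. It took 28.1% of ERVL counts in RNA and 5.23% in footprints. Of the 18460 copies with counts, 237 held 50% of the total. The internal part MERVL_2A-int was also uneven, with 29.6% of its counts in the copy MERVL_2A-int_3654.

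MERVL-int itself was spread over many copies. Of its 2569 copies, 1062 (41.3%) had counts, against 15.7% of ERVL copies as a whole, and the copy with most counts, MERVL-int_1725, held 2.51% of them. Its LTR MT2_Mm had counts in 572 of 2641 copies, with 3.05% in the copy with most. At the other end stood MLT2F, shown because of its footprints described further on, with 56.2% of its counts in 1 copy of 571. Copies of a subfamily share sequence, and how reads matching several copies were assigned in this table is not given in the sources used here, so the split between copies is less certain than the subfamily sums.

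The level of ERVL elements as a whole overlapped between genotypes in both assays. In RNA, all ERVL copies summed to 1093, 887 and 1012 CPM in *Mael*+/- and to 1184, 1069 and 1021 CPM in *Mael*-/- libraries. The means were 997 ± 104 and 1091 ± 83.8 CPM (SD, n = 3), a fold of 1.09. In footprints the sums were 1287, 1200 and 926 CPM against 1160, 1236 and 1229 CPM, with means of 1138 ± 189 and 1208 ± 42.1 CPM and a fold of 1.06. Without RMER15_10650 the folds were 1.07 in RNA and 1.07 in footprints. The other LTR families had like folds, of 1.09 and 1.08 for ERVL-MaLR, 1.116 and 1.09 for ERVK, and 1.08 and 1.02 for ERV1 in RNA and footprints.

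To ask whether any ERVL subfamily changed in RNA with the loss of Maelstrom, edgeR's quasi-likelihood test was run over all 1114 subfamilies with enough counts and its p-values were adjusted by the Benjamini-Hochberg method. Of the 110 ERVL subfamilies, 80 passed the filter on low counts and 0 were called at an adjusted p under 0.05, against 0.898% of all subfamilies tested. At an unadjusted p under 0.05 there were also 0, against 5.57% of all subfamilies, and DESeq2 called 0. The 10 called subfamilies belonged to ERVK (7) and L1 (3), and each was higher in *Mael*-/- RNA. The estimates of ERVL ran from -0.72 for LTR83 to 0.67 for LTR53 on the log2 scale, named here only as the ends of the range, and 56 of 80 were above 0. Their median of 0.10 was that of all subfamilies tested (0.09). When libraries were scaled on the repeats themselves, the medians were -0.01 for ERVL and -0.02 for all subfamilies, and 39 of 82 ERVL estimates were above 0, so the small shift upwards depended on the scaling.

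MERVL-int, the internal part of the active lineage, showed no difference beyond the spread between replicates. Its RNA level was 62.6, 59.5 and 71.9 CPM in *Mael*+/- and 96.8, 63.7 and 75.5 CPM in *Mael*-/- libraries. *Mael*-/- replicate 1 was the highest of the 6, and the genotypes overlapped. The log2 fold change was 0.28 (SE 0.19, 95% confidence interval -0.13 to 0.70, edgeR adjusted p = 0.996). It was 0.11 without *Mael*-/- replicate 1, and no setting or library left out made it a call. The interval reaches neither a doubling nor a halving of the RNA level.

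MT2_Mm, the LTR that drives MERVL, gave values of the same kind. The libraries stood at 12.4, 10.1 and 14.7 CPM in *Mael*+/- and at 21.8, 14.9 and 13.4 CPM in *Mael*-/- RNA. Again *Mael*-/- replicate 1 was highest and the groups overlapped. The log2 fold change was 0.42 (SE 0.24, interval -0.08 to 0.93, edgeR adjusted p = 0.996), and 0.19 without that library.

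**Figure D1:**
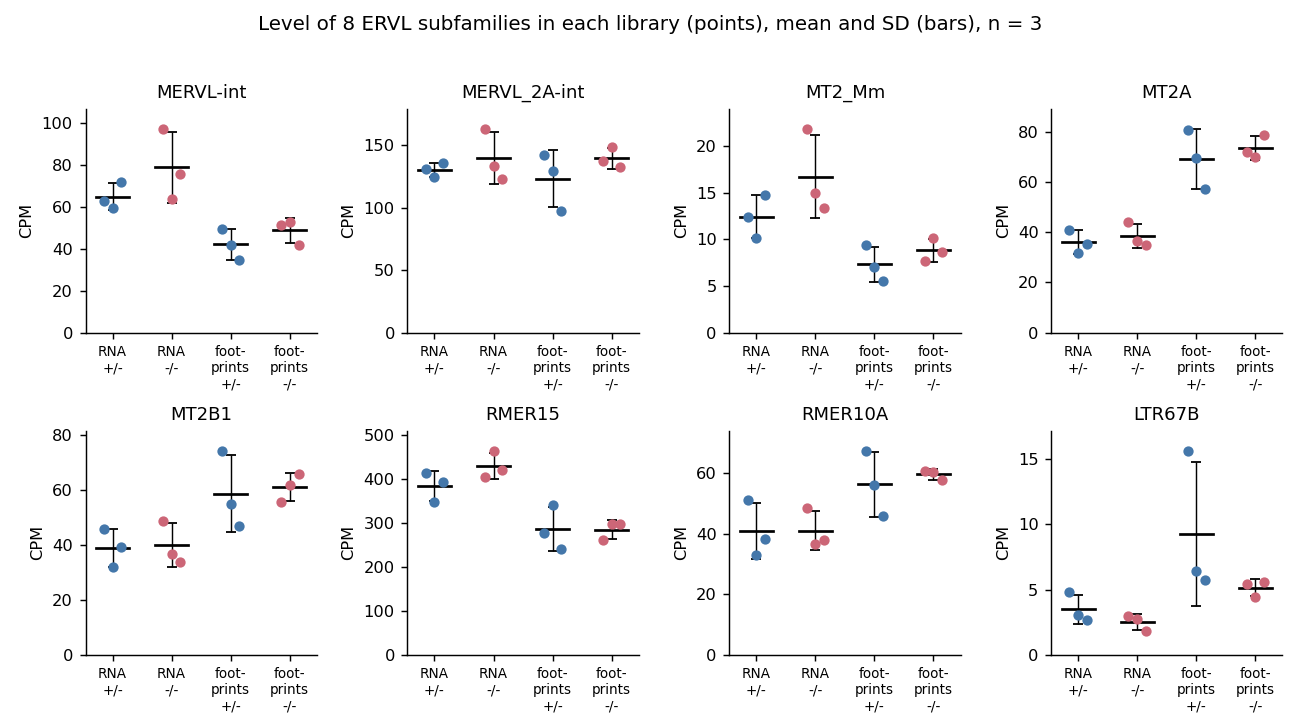
Level of the 8 named ERVL subfamilies in CPM (linear axis from 0) in each of the 12 libraries, by assay and genotype. Points are libraries, in replicate order from left to right, and bars give the mean and SD of 3. The genotypes overlap in RNA in all 8 panels, and the single high LTR67B footprint point, at 15.6 CPM, is heterozygous extract 1.

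The other abundant subfamilies gave estimates nearer 0. RMER15 had a log2 fold change of 0.16 in RNA (interval -0.16 to 0.48), between *Mael*+/- libraries of 413, 346 and 392 CPM and *Mael*-/- libraries of 403, 462 and 420 CPM. MERVL_2A-int was at 0.10 (-0.27 to 0.46), MT2A at 0.09 (-0.32 to 0.51), MT2B1 at 0.03 (-0.41 to 0.47) and RMER10A at 0.00452 (-0.44 to 0.45). Scaled on the repeats, the last 4 were below 0.

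By groups of names, 0 subfamilies were called in RNA in any group. Both MERVL internal parts were above 0, with a median of 0.19, and so were all 6 MT2 LTRs, with a median of 0.14. Of 9 MLT2 LTRs tested 4 were above 0, with a median of -0.0019. LTR16, an old LTR group, had 8 of 10 above 0 and a median of 0.21, and internal parts other than MERVL and RMER15-int had 5 of 7 and a median of 0.27, beside the median of 0.09 over all subfamilies. The 95% interval lay within a 2-fold change either way for 58 of the 80 ERVL subfamilies.

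In ribosome footprints, 72 ERVL subfamilies were tested and 1 was called, LTR67B, which was lower in *Mael*-/- libraries. Of all 1045 subfamilies tested 1.82% were called. At an unadjusted p under 0.05 the ERVL count was 3 (LTR67B and, named after their values were seen, MER74B and MER74A), against 7.46% of all subfamilies, and DESeq2 called 0. Of the 72 estimates, 55 were above 0, with a median of 0.14 against 0.13 over all subfamilies. Scaled on the repeats, 39 of 73 were above 0, with a median of 0.0084 against 0.0036. The fit gave subfamilies of like abundance the same spread in this assay, so a feature that varies more than those between replicates is judged too leniently.

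MERVL footprints overlapped between genotypes as its RNA did. MERVL-int stood at 49.4, 41.7 and 34.7 CPM in *Mael*+/- and at 51.2, 52.8 and 41.9 CPM in *Mael*-/- footprints, a log2 fold change of 0.22 (SE 0.19, interval -0.16 to 0.59, edgeR adjusted p = 0.848). MT2_Mm stood at 9.35, 6.97 and 5.56 CPM against 7.66, 10.1 and 8.64 CPM, a log2 fold change of 0.27 (SE 0.22, interval -0.16 to 0.69, edgeR adjusted p = 0.848). RMER15 footprints were at -0.0060 on the log2 scale (interval -0.37 to 0.36), MERVL_2A-int at 0.18 (-0.18 to 0.54), MT2A at 0.09, RMER10A at 0.08 and MT2B1 at 0.06.

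**Figure D2:**
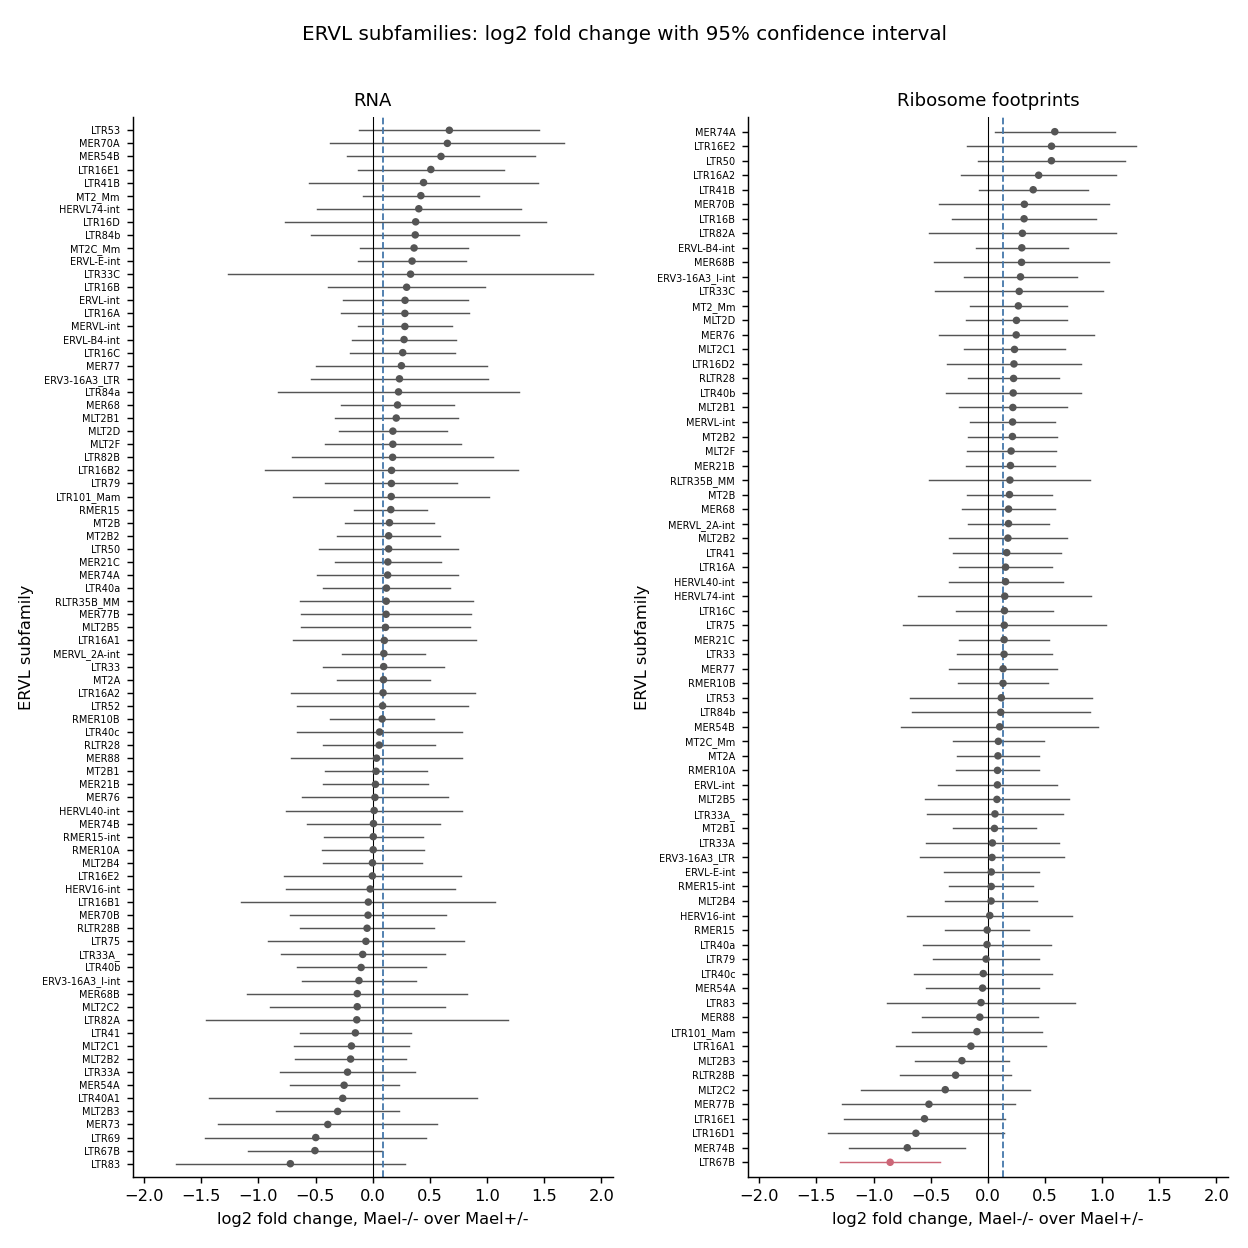
Log2 fold change of *Mael*-/- over *Mael*+/- (points) with its 95% confidence interval (lines) for the 80 ERVL subfamilies tested in RNA (left) and the 72 tested in footprints (right), each sorted by its estimate. The blue dashed line is the median of all subfamilies tested in that assay, 0.09 and 0.13, and the red entry is LTR67B, the only one with an edgeR adjusted p under 0.05.

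The LTR67B call rested on 1 copy and leaned on 1 extract. Its footprint libraries held 147, 50 and 59 counts in *Mael*+/- and 72, 44 and 47 in *Mael*-/-, or 15.6, 6.45 and 5.76 CPM against 5.46, 4.39 and 5.56 CPM. Heterozygous extract 1 was far above the rest, and the highest *Mael*-/- library came close to the lowest *Mael*+/- one. The log2 fold change was -0.85 (SE 0.22, edgeR adjusted p = 0.00845). Without heterozygous extract 1 it was -0.24, with an edgeR adjusted p of 0.531, and of the 6 libraries only heterozygous replicate 2 could be left out with the call kept. With the replicate number as a block the edgeR adjusted p was 0.0582. In RNA LTR67B stood at 4.78, 3.04 and 2.65 CPM against 2.97, 2.73 and 1.78 CPM, a log2 fold change of -0.50 that was not called (edgeR adjusted p = 0.996).

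The counts that made the difference came from LTR67B_575. This copy had 103, 15 and 18 footprint counts in *Mael*+/- libraries and 0 in each *Mael*-/- library. In RNA it had 32, 13 and 3 counts against 0, 0 and 0. Measured against a floor of 3 counts per library, it was at least 16.6-fold lower in *Mael*-/- footprints and at least 4.17-fold lower in *Mael*-/- RNA. These limits leaned on heterozygous extract 1, and without it they were 6.28-fold in footprints and 1.86-fold in RNA, where heterozygous replicate 3 was itself at the floor of 3 counts. Without this copy the remaining LTR67B counts were 44, 35 and 41 against 72, 44 and 47 in footprints, and the log2 fold change turned to 0.23 (SE 0.26). In *Mael*+/- libraries the copy was highest in extract 1, the extract with the high germ cell and pachytene markers, in both assays. The part of that extract's cell makeup in the result was not tested.

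The same extract stood out in other ERVL subfamilies, described after their values were seen. Of the 92 with at least 20 footprint counts, 4 had a CPM in heterozygous extract 1 at least 2 times that of every other footprint library: LTR67B, MER74B, LTR102_Mam and LTR86C. The same count was not made over all repeat subfamilies or for other libraries, so these 4 cannot be read as a trait of ERVL. LTR102_Mam had 29, 6 and 7 footprint counts against 4, 4 and 3, and 60, 11 and 12 RNA counts against 5, 7 and 9. LTR86C had 19, 5 and 4 footprint counts against 1, 2 and 2. Both were under the filter on low counts in footprints. MER74B was at 9.24, 4.001 and 2.83 CPM in *Mael*+/- against 3.18, 3.59 and 3.08 CPM in *Mael*-/- footprints, with a log2 fold change of -0.71 (edgeR adjusted p = 0.229). Its copy MER74B_111, looked at after its values were seen, had 46, 8 and 15 footprint counts against 8, 4 and 5 and no RNA count in any library. MER74A went the other way, with 4.36, 2.71 and 2.44 CPM against 5.15, 4.69 and 4.38 CPM, so that its genotypes did not overlap by a narrow margin, at 0.59 on the log2 scale (edgeR adjusted p = 0.52).

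Single copies were tested next, since a few transcribed copies can be lost in a subfamily sum. Of the 16710 repeat copies with enough RNA counts, 244 were ERVL. Of these 1 was called, against 1.61% of all copies tested, and 12 had an unadjusted p under 0.05, against 9.01%. The median log2 fold change of ERVL copies was 0.07, beside 0.11 for all copies. In footprints 103 ERVL copies were tested and 1 was called, LTR67B_575 (edgeR adjusted p = 0.00052), against 0.817% of all copies, and 7 had an unadjusted p under 0.05, against 5.33%. LTR67B_575 had counts in *Mael*+/- libraries alone and so passed the filter on low counts through them, which makes its call a description of those counts.

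The called copy in RNA was MERVL-int_449. It had 27, 13 and 10 counts in *Mael*+/- RNA and 40, 32 and 45 in *Mael*-/- RNA, which was 1.17, 0.477 and 0.379 CPM against 2.89, 1.59 and 1.64 CPM. Every *Mael*-/- library was above every *Mael*+/- library. The log2 fold change was 1.58 (SE 0.37, edgeR adjusted p = 0.0212). Its footprints, in which it had too few counts to be tested, were 6, 3 and 2 counts against 23, 9 and 8, or 0.637, 0.387 and 0.195 CPM against 1.74, 0.899 and 0.947 CPM, without overlap and in the same direction. The call did not hold without heterozygous RNA replicate 2 (edgeR adjusted p = 0.0712), without heterozygous replicate 3 (0.116) or without *Mael*-/- replicate 1 (0.165). Leaving this copy out of MERVL-int, an alternative added after the data had been seen, left the subfamily uncalled in both assays.

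No other MERVL-int copy was called. Those of most counts, picked after their values were seen, were MERVL-int_1725 and MERVL-int_827. MERVL-int_1725 had 18, 33 and 32 RNA counts in *Mael*+/- and 28, 38 and 41 in *Mael*-/- libraries, or 0.781, 1.21 and 1.21 CPM against 2.03, 1.88 and 1.49 CPM, without overlap. Its log2 fold change was 0.72 with an edgeR adjusted p of 0.404. MERVL-int_827 had 23, 18 and 31 RNA counts against 22, 19 and 28, or 0.998, 0.66 and 1.17 CPM against 1.59, 0.942 and 1.02 CPM, and overlapped between genotypes. The abundant copies gave estimates near 0. RMER15_10650 stood at 287, 243 and 280 CPM against 274, 352 and 309 CPM in RNA, a log2 fold change of 0.21 (interval -0.22 to 0.63). MERVL_2A-int_3654 was at 0.06 (-0.33 to 0.45) and MERVL_2A-int_3655 at 0.02 (-0.38 to 0.42).

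Footprints relative to RNA were then compared within each extract, taken as the RNA and footprint libraries of the same replicate number. In *Mael*-/- such libraries deviated together only weakly (r = 0.16 to 0.20), so its pairs are less certain. For the 70 subfamilies tested in both assays, the footprint CPM divided by the RNA CPM of the same extract had a median of 1.68. Of these, 43 subfamilies were above 1 in all 6 extracts. MERVL-int, MT2_Mm and RMER15 were the 3 of the 70 that were below 1 in all 6. Repeats of all families together took 7.65 to 10.2% of the counts of an RNA library and 10.8 to 13.6% of those of a footprint library. The ratios were not computed for other repeat subfamilies, so these counts cannot be read as a trait of ERVL. MERVL-int ran from 0.483 to 0.829 and MT2_Mm from 0.351 to 0.753, with *Mael*+/- means of 0.658 ± 0.158 and 0.607 ± 0.201 and *Mael*-/- means of 0.638 ± 0.166 and 0.557 ± 0.179 (SD, n = 3). RMER15 ran from 0.613 to 0.981. This leaned on RMER15_10650, the copy with 60.3% of RMER15 counts, at 39968 RNA and 3608 footprint counts. MERVL_2A-int lay around 1, from 0.719 to 1.116, MT2A between 1.61 and 2.25, and MLT2F between 6.18 and 14.1. The MLT2F ratio leaned on MLT2F_303, the copy with 56.2% of MLT2F counts, at 1080 footprint counts and no RNA count. Ratios without these copies were not computed, so the values of RMER15 and MLT2F do not describe their other copies. In no case named here did the 2 genotypes separate. The ratio compares CPM of 2 kinds of library and is no count of ribosomes per RNA.

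**Figure D3:**
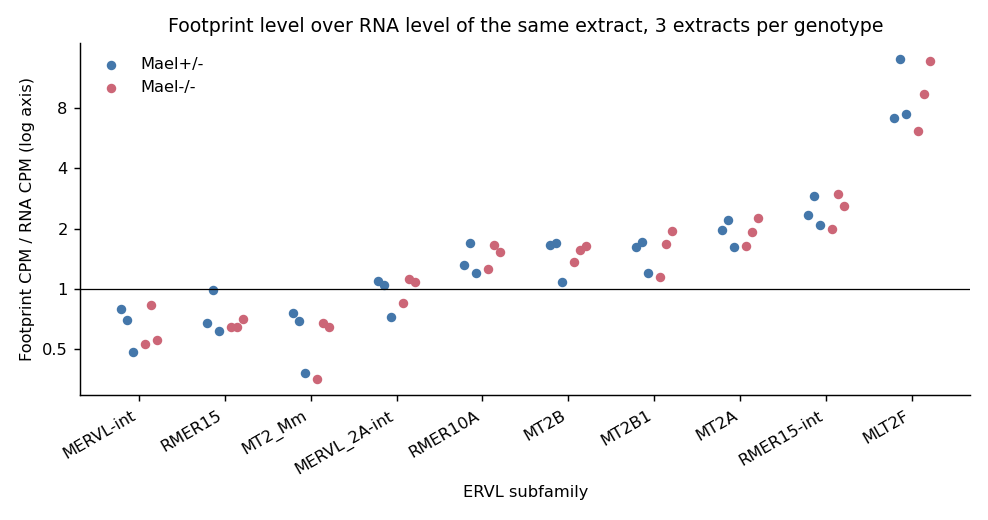
Footprint CPM divided by RNA CPM of the same extract (log axis) for 10 ERVL subfamilies, with 3 *Mael*+/- extracts in blue and 3 *Mael*-/- extracts in red. Libraries were paired by replicate number. The line marks equal levels. MERVL-int, RMER15 and MT2_Mm lie below it in all 6 extracts, MLT2F lies at 6.18 or above, and the genotypes overlap in every subfamily shown. The single copies RMER15_10650 and MLT2F_303 hold 60.3% and 56.2% of the counts of RMER15 and MLT2F.

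A change of translation efficiency, the change of footprints beyond that of RNA, was tested in 1 model of the 12 libraries, by its interaction term between assay and genotype. Of 84 ERVL subfamilies 0 were called by edgeR and 0 by DESeq2. Over all 1148 subfamilies the share called was 0%. At an unadjusted p under 0.05 there was 1 ERVL subfamily against 3.05% of all. MERVL-int was at -0.07 on the log2 scale (SE 0.27, interval -0.62 to 0.49) and MT2_Mm at -0.15 (SE 0.33, interval -0.83 to 0.53). The subfamily with the low unadjusted p was LTR16E1, which was named after its values were seen. Its RNA was 1.09, 1.32 and 0.948 CPM against 1.52, 1.93 and 1.35 CPM and its footprints 2.34, 2.06 and 1.95 against 1.74, 1.298 and 1.18 CPM, so the genotypes separated in opposite directions, at -1.07 (edgeR adjusted p = 0.9997). With each extract as a term of the fit, 0 ERVL subfamilies were called. The interval lay within a 2-fold change either way for 35 of the 84, and for the others a change of that size lay within the interval.

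Some ERVL copies had footprints and almost no RNA. Of the 99 ERVL copies with at least 60 footprint counts over the 6 libraries, 41 (41.4%) had at most 6 RNA counts, and 33 of these had none. The 41 copies came from 25 subfamilies, had footprints in all 6 libraries, and held 9.75% of ERVL footprint counts. The share of copies was 52.3% over all repeat families, 29.2% in ERVL-MaLR, 28.3% in ERVK and 23.6% in ERV1. Such copies held 29.0% of footprint counts over all repeat families, 9.52% in ERVL-MaLR, 8.50% in ERVK and 6.62% in ERV1. No test was made of these shares.

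The copy with most was MLT2F_303. Its footprint counts were 160, 157 and 164 in *Mael*+/- and 233, 197 and 169 in *Mael*-/- libraries, and it had no RNA count in any of 6 libraries. In CPM these were 17.0, 20.3 and 16.01 against 17.7, 19.7 and 20.0, which overlapped. RMER15-int_1489 followed with 105, 99 and 105 against 119, 105 and 81 footprint counts, again with no RNA count. RMER15_10649 had 2097 footprint and 10 RNA counts, and RMER15_10650, of the adjoining number, had 3608 and 39968. Among MERVL internal parts, MERVL_2A-int_3037 had 293 footprint counts and no RNA count, and no copy of MERVL-int or MT2_Mm was among the 41. For genes, the whole mRNA was counted in RNA libraries and its coding sequence alone in footprint libraries. How a read within a repeat inside an mRNA was counted in each assay is not given in the sources used here, and its part in these values was not tested.

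**Figure D4:**
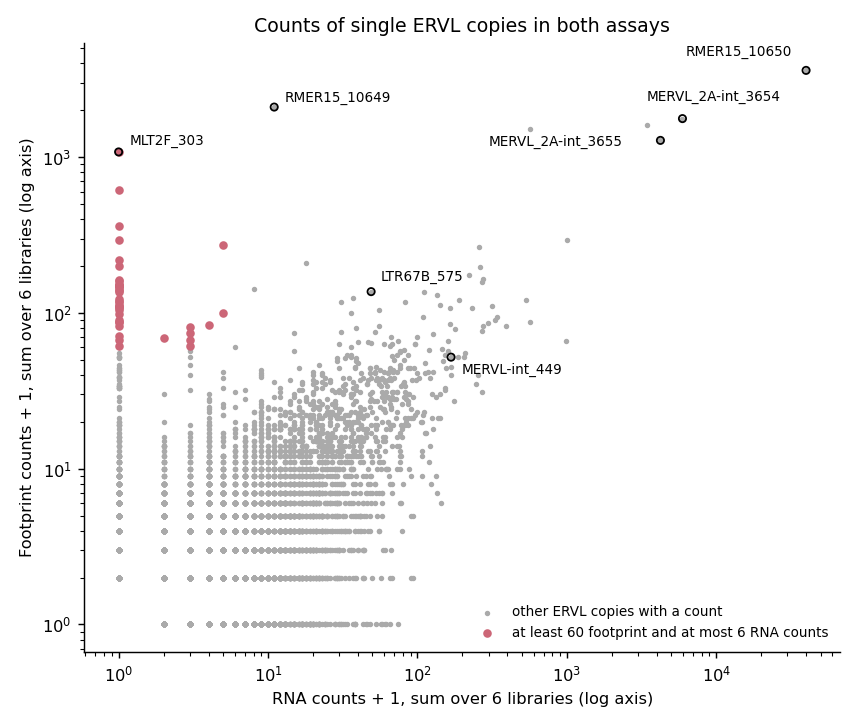
Each point is 1 of the 18460 ERVL copies with a count, placed by its RNA counts (horizontal) and footprint counts (vertical), each summed over 6 libraries, with 1 added and on log axes. Red points are the 41 copies with at least 60 footprint and at most 6 RNA counts, headed by MLT2F_303 at 1080 footprint counts, and RMER15_10650 lies alone at the upper right.

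Genes that accompany MERVL in early embryos were mostly listed at or near 0 counts. Many of them belong to families of near-identical copies. The globin genes *Hba-a1* and *Hbb-bs*, which also have close copies, were listed at 0 in all 12 libraries while the erythroid gene *Alas2* had 78 to 300 RNA counts, so a 0 here cannot be read as absence of RNA. The part of read assignment in these zeros was not tested. Of 27 MERVL-linked genes in the table, 19 were at 0 in all 12 libraries, among them *Zscan4c*, *Zscan4d* and *Zfp352*, which mark the MERVL-positive state of embryonic stem cells. A further 5 had 1 to 10 counts in all, and *Dux*, the transcription factor that activates MERVL, was among them with 6. The 3 above 10 counts were *Sp110*, *Arg2* and *Gm4981*. The 2 that could be tested in RNA were not called, *Sp110* at -0.53 (edgeR adjusted p = 0.983) and *Arg2* at 0.28 (edgeR adjusted p = 0.983), against 0.116% of all 14647 genes called. In footprints *Arg2* alone could be tested and was not called, against 0.0593% of all 13500 genes.

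Regulators of MERVL were present and were not called either. Over all genes tested the share called was 0.116% in RNA and 0.0593% in footprints, so 0 calls in lists this short do not set these genes apart. Of 5 activators 4 were tested, and 0 were called in either assay. *Dppa4*, which acts upstream of *Dux*, had 10.1, 8.21 and 7.01 CPM in *Mael*+/- and 5.14, 5.90 and 6.84 CPM in *Mael*-/- RNA, at -0.49 on the log2 scale (edgeR adjusted p = 0.88). Of 22 silencers, all were tested, 7 estimates were above 0 in each assay and 0 were called. *Trim28*, the corepressor of KRAB zinc-finger proteins, stood at 572, 572 and 503 CPM against 462, 507 and 562 CPM in RNA. *Setdb1*, which methylates histone H3 at silenced retroviruses, was at 234, 227 and 204 against 236, 269 and 231 CPM.

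The ERVL medians lay within the range of the other LTR families and L1. The median log2 fold change in RNA was 0.10 for ERVL, 0.15 for ERVL-MaLR, 0.12 for ERVK, 0.02 for ERV1 and 0.14 for L1. In footprints it was 0.14, 0.11, 0.14, 0.11 and 0.23 in the same order. Among single copies in RNA, 126 of the 269 called were L1 and 1 was ERVL. Of the 16710 copies tested 244 were ERVL. How many were L1 was not counted, so these counts do not compare how often each family was called. Tests on simulated counts recovered 71.1% of 2-fold and 97.9% of 4-fold changes of subfamilies in RNA, 89.7% and 100% in footprints, and 44.4% and 88.7% in translation efficiency. For single copies they recovered 14.8% of 2-fold and 90.5% of 4-fold changes in RNA, so a doubling of 1 ERVL copy would mostly have gone uncalled. The simulated RNA subfamilies, drawn from all families, held 97 2-fold and 94 4-fold changes, and 170 were called, against 10 in the data. More changed features make the adjustment of p-values less strict. Simulated libraries also shared no extract and had no odd one. The shares for subfamilies can therefore be higher than the power of the tests on the data.

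**Figure D5:**
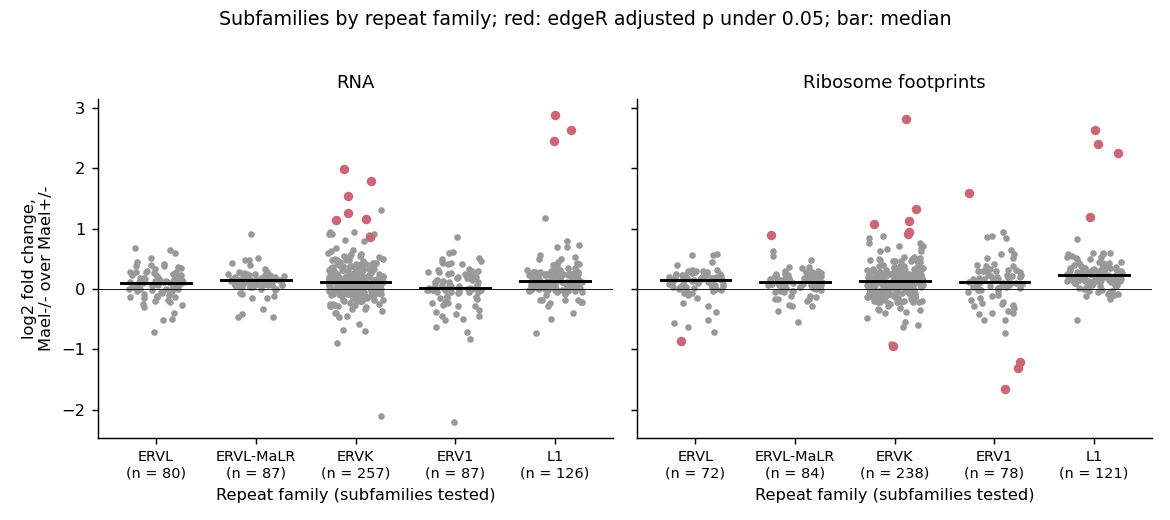
Log2 fold change of *Mael*-/- over *Mael*+/- of each tested subfamily (points) by repeat family, in RNA (left) and footprints (right), with the median as a bar and calls at an edgeR adjusted p under 0.05 in red. In RNA no ERVL, ERVL-MaLR or ERV1 point is red, and the 10 red points lie in ERVK and L1. In footprints the single red ERVL point is LTR67B.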

How the data were processed

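The deposited table holds raw read counts, whole numbers without normalization, that the authors made per gene and per repeat copy. Per the paper's methods and the submitters' processing notes, footprint reads were clipped of the linker, reads matching ribosomal DNA were removed with Bowtie 1.2.2, the rest were aligned to mm10 with STAR 2.6.0c and counted with featureCounts (Subread 1.6.4). Whether duplicates were removed, and how multi-mapped reads and strand were treated for repeats, is not given in the sources used here. The deposited DESeq2 result tables hold the authors' own comparisons and were not used.

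Copies were summed by repeat name. Library size was the gene total times its TMM factor within an assay. Subfamilies, copies and genes were each tested whole with edgeR 4.0.16 in R 4.3.3 (filterByExpr, quasi-likelihood F-test, Benjamini-Hochberg adjustment), called at an adjusted p under 0.05. Standard errors were derived from the F statistic. Alternatives were DESeq2 1.42.0, other scalings and filters, blocks, and leaving out copies or libraries. RNA and footprints of the same number deviated together in *Mael*+/- (r = 0.54 to 0.71 across 14386 genes). In *Mael*-/- r was 0.16 to 0.20, near the -0.0088 to 0.17 of same-numbered libraries of the 2 genotypes. The paper's methods describe both assays from the same extracts, so extracts were taken to pair the assays. Tests were tried on simulated counts. Named were MERVL-int, MT2_Mm, called subfamilies and the 5 others of most counts, and, of copies, called ones and the 3 of most counts. The members, lists and tests were chosen with earlier results of these data known. The table gives no coordinates for copies, so no sequence is printed. P-values measure only the spread between these extracts.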

Additional observations from a re-analysis of the deposited data

Results flagged for a closer look

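The table also holds repeats whose family is marked with doubt, as ERVL with a question mark, and these were part of no comparison. LTR89, which is among them, had 18, 7 and 15 footprint counts in *Mael*+/- and 40, 23 and 19 in *Mael*-/- libraries. In CPM the means were 1.43 ± 0.505 and 2.53 ± 0.439 (SD, n = 3), a fold of 1.77 without overlap, and this signal above the controls in data left out of the comparisons is why it is given. Its RNA overlapped between genotypes, at a fold of 1.32. The other subfamilies so marked, LTR55 and LTR87, overlapped in both assays. LTR89 was thus picked for its lack of overlap, and the share of all subfamilies without overlap was not computed. No test of it was made.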

How the results depend on the processing

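Of 78 counts and sums recomputed under alternatives 61 stayed close to the value given, and of 428 values of named members 360 kept their direction and call. In footprints, the number of ERVL subfamilies called was 0 by DESeq2, scaled on the repeats, with the replicate block and without the copy of most counts in each subfamily, and 3 without a filter (LTR67B, LTR102_Mam and LTR86C). In RNA, 0 ERVL copies were called at a mean of at least 20 counts, and in footprints 2 with the replicate block (LTR67B_575 and MER74B_111). Same-numbered *Mael*+/- and *Mael*-/- libraries share only a number (r = -0.0088 to 0.17). The replicate block moved the RNA subfamilies called in all from 10 to 39, with 0 ERVL among them.

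Leaving out each library in turn gave 0 to 1 ERVL subfamilies called in RNA (1, LTR102_Mam, without *Mael*+/- replicate 2), 0 to 1 in footprints, 1 to 4 copies in RNA (3 without *Mael*-/- replicate 1, 4 without replicate 2 or 3, 2 without *Mael*+/- replicate 2) and 1 to 2 copies in footprints (2 without *Mael*+/- replicate 2). The added RNA copies were LTR67B_575, called in 4 of the 6 runs, MLT2B3_594 and RMER15_6380, each lower in *Mael*-/-, opposite to MERVL-int_449. Without heterozygous footprint replicate 1 the subfamily called was MER74A, higher in *Mael*-/-. The named estimates whose sign turned ran, on the log2 scale, in RNA from -0.027 to 0.19 for MERVL_2A-int, -0.010 to 0.20 for MT2A, -0.13 to 0.20 for RMER10A, -0.14 to 0.16 for MT2B1 and -0.085 to 0.11 for MERVL_2A-int_3655. In footprints they ran from -0.12 to 0.14 for RMER15, -0.034 to 0.22 for MT2A, -0.047 to 0.23 for RMER10A, -0.084 to 0.26 for MT2B1, -0.17 to 0.16 for RMER15_10650 and -0.069 to 0.24 for MERVL_2A-int_3655. In translation efficiency they ran from -0.20 to 0.11 for MERVL-int, -0.32 to 0.079 for MT2_Mm, -0.63 to 0.26 for LTR67B, -0.060 to 0.21 for MERVL_2A-int, -0.13 to 0.12 for MT2A, -0.11 to 0.23 for RMER10A and -0.11 to 0.23 for MT2B1. Without both libraries of heterozygous extract 1, added after the data had been seen, translation efficiency was at 0.094 for MERVL-int, 0.077 for MT2_Mm and 0.019 for MT2A.

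Scaled on the repeats, MERVL_2A-int was at -0.030, MT2A at -0.013, RMER10A at -0.094 and MT2B1 at -0.083 in RNA, and MT2A at -0.036, RMER10A at -0.036 and MT2B1 at -0.061 in footprints. Without the copy of most counts LTR67B turned to 0.23 and RMER15 to 0.0080 in footprints. With the replicate block RMER15 was at 0.0052 in footprints and MT2A at 0.0040 in translation efficiency. None of these sign changes concerned a called value except that of LTR67B, and for the others the cause was not tested.

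The alternative with copies outside annotated genes was not run, since the table gives no positions. At this depth most single copies had too few counts for a test. The number of animals behind each extract is not stated.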
